A study of Mus musculus with 7 samples.

Results

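Ribosomal protein pseudogenes are copies of ribosomal protein genes elsewhere in the mouse genome, and those described here were chosen by name and by detection. All rows of the table of normalized counts with a symbol that starts with Rpl or Rps and continues to "-ps" were taken if they had a count above 0 in at least 1 library. Of 284 rows with such a symbol, 203 passed (of 48440 rows in the table), and 81 were at 0 in every library. Detection over all 7 libraries was the measured value that selected them, without regard to genotype. At the edge of this rule, 10 of the 203 had a single read pair over all libraries. Rps26-ps1 was singled out with its difference between the groups already known, so its values are a description and not independent support.

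LSK cells are bone marrow cells without lineage markers that carry Sca1 and cKit, a population that holds the hematopoietic stem cells and multipotent progenitors. They were sorted from C57BL/6 recipient mice that had received 9.5 Gy and bone marrow of wild-type donors or of donors with a constitutive, endonuclease-mediated PROSER1 KO, 77 days after transplantation. Both groups therefore share the irradiated host, some of whose own cells can remain, and the number of animals behind each library is not given in the sources used here. RNA with poly(A) tails was sequenced from 4 wild-type and 3 PROSER1 KO samples, labelled as biological replicates. Depth ranged from 33143619 to 42742329 read pairs assigned to genes for wild-type and from 37140168 to 45140743 for PROSER1 KO. Where a gene has no read pairs at all, up to 3 could have been missed. This limit, 2.54 to 3.48 after normalization depending on the library, covers counting error and nothing else. Libraries of the same group differed by more than sampling noise (a chi-square of 27.8 to 88.0 for each degree of freedom), so none was merged with another as a copy. This does not show that they are independent.

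Proser1 (ENSMUSG00000049504), the targeted gene, reached 2019.4, 2153, 2103 and 2077 normalized counts in the 4 wild-type replicates, in order. In the 3 PROSER1 KO replicates it reached 2464, 2359 and 2338. Its mRNA was thus not lower where the labels place the KO, and the direction of each difference rests on the labels (log2 fold change 0.19, SE 0.049, limma adjusted p = 0.204). The groups are therefore called the wild-type libraries and the PROSER1 KO-labelled libraries.

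Ribosomal proteins are made in large amounts by every growing cell, and their short, abundant mRNAs have often been reverse transcribed and inserted back into the genome. The resulting processed pseudogenes lack introns and usually lack the promoter of the parent gene. Most are silent, and some are transcribed from sequence around the place where they landed. Because a young copy is nearly identical to its parent, a short read from the parent's mRNA can match the copy, and the reverse.

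Rps26-ps1 is a copy of Rps26, which encodes a protein of the small ribosomal subunit. It (ENSMUSG00000059775) is annotated as a transcribed processed pseudogene of 1 exon on the reverse strand of chromosome 8, at chr8:107439131-107439579 in GRCm38. It lies in an intron of Wwp2, which runs on the opposite strand and encodes a ubiquitin ligase. The coding sequence of Rps26 has 348 bases, and Rps26-ps1 aligned to all of it with 0 gaps and 2 substitutions. Both substitutions leave the encoded amino acid as it is. The start codon and the final stop codon are kept, with 0 stop codons in frame before the last.

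Rps26-ps1 was 6.39-fold higher in the PROSER1 KO-labelled libraries than in the wild-type libraries. Wild-type replicates 1 to 4 held 229, 265, 214 and 261 normalized counts. PROSER1 KO replicates 1 to 3 held 1519.9, 1701 and 1420. The groups did not overlap, and the spread within each was small beside the gap between them. The means were 242 ± 24.9 in wild-type (SD, n = 4), beside 1547 ± 142 (SD, n = 3). On the log2(normalized count + 1) scale the difference was 2.67 (SE 0.107, 95% interval 2.43 to 2.91, limma adjusted p = 1.17e-05), with the lowest p-value of the 16251 genes tested. Behind these values stood 186 to 294 read pairs in each wild-type library and 1457 to 2010 in each PROSER1 KO-labelled library.

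The parent gene Rps26 (ENSMUSG00000025362, chromosome 10) was far more abundant and lay slightly lower in the same libraries. Wild-type replicates 1 to 4 held 23532, 22769, 24619 and 22263 normalized counts. PROSER1 KO replicates 1 to 3 held 21063, 20614 and 18410, so that each lay below each wild-type value. The log2 fold change was -0.22 (SE 0.060, 95% interval -0.35 to -0.09), and it did not pass the test (limma adjusted p = 0.244). DESeq2 gave an adjusted p of 0.0176 for it, with a fold change below the minimum of 1.5.

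Within each library, Rps26-ps1 was set against its parent as a ratio of normalized counts, which no scaling of the library changes. Rps26-ps1 amounted to 0.973%, 1.16%, 0.868% and 1.17% of Rps26 in wild-type replicates 1 to 4. In PROSER1 KO replicates 1 to 3 it amounted to 7.22%, 8.25% and 7.71%. The ratio was thus higher in each PROSER1 KO-labelled library than in each wild-type library. The difference of the mean log2 ratios was 2.90 (p = 0.0286 by a two-sided exact permutation test, which cannot give a smaller p with groups of 4 and 3). Since Rps26-ps1 was chosen with its difference already known, this p-value could hardly have come out otherwise and is not independent support. Pseudogene and parent together came to 23538 ± 1002 normalized counts in wild-type (SD, n = 4), against 21576 ± 1518 (SD, n = 3) in the PROSER1 KO-labelled libraries. The difference was 1305 normalized counts for Rps26-ps1 and -3267 for Rps26, and whether read pairs moved between the 2 genes in counting was not tested.

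**Figure D1:**
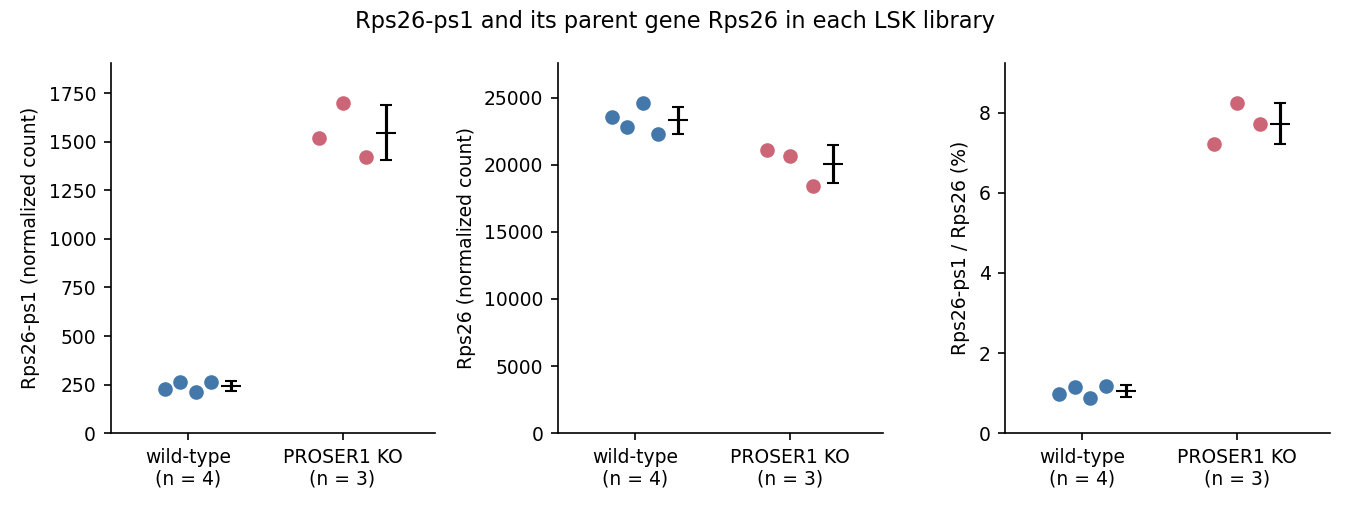
Normalized counts of Rps26-ps1 (left) and Rps26 (middle), and Rps26-ps1 as a percentage of Rps26 (right), in 4 wild-type libraries and 3 PROSER1 KO-labelled libraries; points are libraries and bars the mean ± SD. Rps26-ps1 lies between 214 and 265 in wild-type and between 1420 and 1701 in the PROSER1 KO-labelled libraries.

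How well read pairs can be assigned to Rps26-ps1 depends on its sequence. Of its 400 windows of 50 bases, 17.5% were found in no other annotated gene, and 59.75% were shared with Rps26. The share of its own depends on the window, at 8.37% with 32 bases and 42% with 100. The comparison covered annotated transcripts only and not the whole genome, and how the authors' counting treated read pairs with several matches is not given in the sources used here. The count of Rps26-ps1 is uncertain to that extent. Other annotated genes also hold sequence like Rps26 and were looked up for that reason, after the values had been seen. Med21, a subunit of the Mediator complex with a stretch of 435 bases that is 97.47% identical to Rps26, had 711 ± 45.1 normalized counts in wild-type (SD, n = 4), against 797 ± 58.0 (SD, n = 3) in the PROSER1 KO-labelled libraries (limma adjusted p = 0.559). The pseudogene Gm6654, 97.41% identical over 348 bases, had 2.32 to 18.4 normalized counts in wild-type, against 11.5 to 23.7 in the others (log2 fold change 1.39, SE 0.676, limma adjusted p = 0.543). It lies within the span of Med21, on the opposite strand, so these 2 genes share a locus. Neither Med21 nor Gm6654 passed the test.

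The genes around Rps26-ps1 showed no difference that passed the test. For the host gene Wwp2, wild-type replicates 1 to 4 held 4394, 4581, 4568 and 4621 normalized counts. PROSER1 KO replicates 1 to 3 held 4583, 4596 and 4157. Its groups overlapped (log2 fold change -0.03, SE 0.050, limma adjusted p = 0.890). The libraries were made with a directional kit, but whether the counting used the strand is not given in the sources used here, so whether reads from the Wwp2 intron entered the count of Rps26-ps1 is not known. The nearest tested gene on the left, Nob1, which encodes a nuclease that matures ribosomal RNA of the small subunit, had a log2 fold change of -0.02 (limma adjusted p = 0.953). The nearest on the right, Psmd7, a proteasome subunit, had -0.08 (limma adjusted p = 0.581). Its groups did not overlap, with 4187 to 4481 normalized counts in wild-type and 4018 to 4118 in the PROSER1 KO-labelled libraries. Of all tested genes, 4.83% were lower without overlap. Over the 20 tested genes within 1 Mb, log2 fold changes ran from -0.56 (Cdh1) to 0.25 (Nqo1). With limma 0 of the 20 were called, and 0 had an unadjusted p-value under 0.05, and the same 2 counts were 0 with edgeR and DESeq2.

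Of the 203 pseudogenes, 116 averaged 10 or more normalized counts over the libraries and were tested, and 87 were not. With limma, 1 of the 116 was called (adjusted p under 0.05 and fold change above 1.5), Rps26-ps1, against 0.258% of all tested genes and 0.123% called higher. edgeR on recovered read pairs also called 1, of 121 tested (0.253% of all genes), and DESeq2 1 of 141 (0.873% of all genes). Before adjustment, limma gave p-values under 0.05 to 2 of the 116, Rps26-ps1 and Rpl35a-ps2, against 9.73% of all genes. The median log2 fold change of the tested pseudogenes was 0.003, beside 0.001 for all tested genes, and its sign changed with single settings, for example to -0.02 when the minimum mean was raised to 50. In 107 of them the log2 fold change was within 0.5 of 0. The 95% interval excluded a 1.5-fold difference in either direction for 46, so that for the others a difference of that size was not excluded by these libraries.

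**Figure D2:**
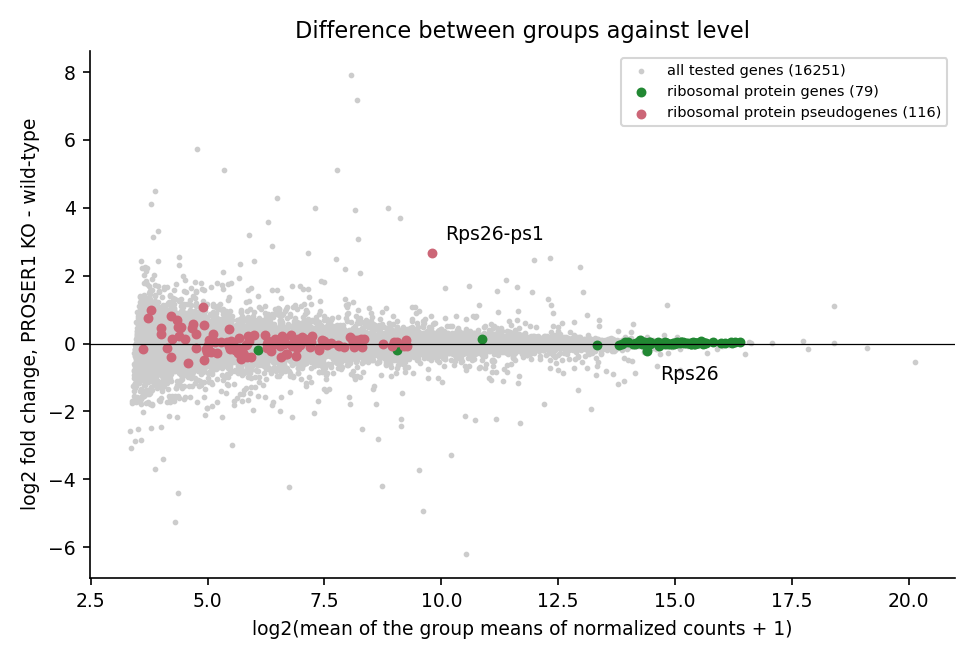
Log2 fold change (PROSER1 KO-labelled libraries minus wild-type) against log2 of the mean normalized count + 1 for 16251 tested genes (grey), 79 ribosomal protein genes (green) and 116 tested ribosomal protein pseudogenes (red). Rps26-ps1, at 2.67, stands above the other tested pseudogenes, the next of which is at 1.08.

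Groups without overlap between the libraries were seen in 4 tested pseudogenes that were higher in the PROSER1 KO-labelled libraries, beside 5.17% of all genes, and in 1 that was lower, beside 4.83%. The other 3 that were higher, named for this after their values were seen, were Rpl27-ps3, Rps2-ps6 and Rps27a-ps1, with log2 fold changes of 0.49, 0.82 and 0.57. The 1 that was lower was Rpl7a-ps7. Their numbers of read pairs were small, and limma called none of these 4.

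Among the larger differences after Rps26-ps1, Rpl35a-ps2 (a copy of Rpl35a, of the large subunit) had 29.8, 16.2, 11.5 and 16.2 normalized counts in wild-type replicates 1 to 4. It had 26.1, 49.1 and 42.2 in PROSER1 KO replicates 1 to 3, so that the groups overlapped through wild-type replicate 1 (log2 fold change 1.08, SE 0.395, limma adjusted p = 0.407). Of its windows of 50 bases 0% were its own, so that its count is uncertain. Rpsa-ps11, a copy of the laminin receptor and small subunit gene Rpsa, had 9.62, 21.6, 8.05 and 1.16 normalized counts in wild-type. It had 16.7, 12.7 and 17.3 in the PROSER1 KO-labelled libraries (log2 fold change 0.99, limma adjusted p = 0.700). The log2 fold change was 0.34 without wild-type replicate 4, 0.57 with edgeR and 0.60 with DESeq2. It also had the widest spread within wild-type (SD 1.42 on the log2 scale), and wild-type replicate 4 lay below the limit of 3 read pairs.

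The 2 most negative log2 fold changes belonged to copies of large subunit genes. Rpl7a-ps7 had 29.8, 25.2, 26.4 and 29.0 normalized counts in the wild-type libraries, against 17.7, 19.5 and 17.3 in the PROSER1 KO-labelled ones (log2 fold change -0.58, limma adjusted p = 0.548). Rpl13-ps3 had 34.3 ± 6.47 in wild-type (SD, n = 4), beside 24.4 ± 6.72 (SD, n = 3) in the other group. Its log2 fold change was -0.49 (limma adjusted p = 0.661), and ran from -0.62 to -0.25 with single libraries left out. Neither passed the test, and their parents Rpl7a and Rpl13 had log2 fold changes of 0.03 and 0.01.

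**Figure D3:**
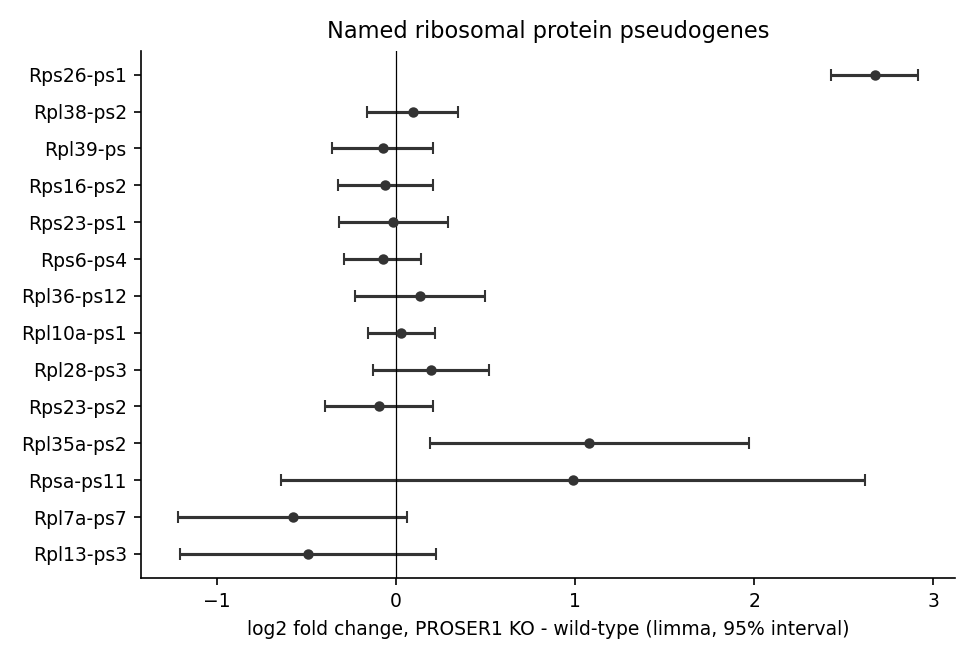
Log2 fold change (PROSER1 KO-labelled libraries minus wild-type, limma) with its 95% interval for Rps26-ps1, the pseudogenes with the highest levels per kb of exon, and those with the largest positive and negative differences. The interval of Rps26-ps1 runs from 2.43 to 2.91.

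Levels of the pseudogenes were spread widely. Per kb of exon, the mean normalized count over all libraries ran from 0.172 to 2822, with a median of 36.8 and quartiles of 4.20 and 165. The 10 most abundant held 35.1% of the summed signal of all 203. Rps26-ps1 ranked 12 by level per kb in the wild-type libraries and 1 in those labelled PROSER1 KO. Without it, the summed normalized count of the others was 14023 ± 627 in wild-type (SD, n = 4), against 14075 ± 1166 (SD, n = 3) in the PROSER1 KO-labelled libraries. Rps26-ps1 made up 1.52% to 1.94% of the sum in each wild-type library and 9.46% to 10.2% in those labelled PROSER1 KO.

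The most abundant pseudogene per kb was Rpl38-ps2, a copy of the large subunit gene Rpl38, at 2822 per kb. It had 582 ± 22.9 normalized counts in wild-type (SD, n = 4), against 627 ± 110 (SD, n = 3) in the PROSER1 KO-labelled libraries (log2 fold change 0.09, limma adjusted p = 0.844). Its sequence is 100% identical to Rpl38 where they align, and its level was 14.8% of the parent's per kb. Rpl39-ps, a copy of Rpl39, stood at 1480 per kb, with a log2 fold change of -0.08 (95% interval -0.36 to 0.21). Its log2 fold change ran from -0.13 to -0.02 with single libraries left out. Of its windows, 49.0% were found in no other gene, beside 0% for Rpl38-ps2.

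Of the remaining small subunit copies with high levels, Rps16-ps2 (1120 per kb), Rps23-ps1 (1015 per kb), Rps6-ps4 (786 per kb) and Rps23-ps2 (647 per kb) each had 0% of windows of their own. Their log2 fold changes were -0.06, -0.02, -0.08 and -0.09. That of Rps6-ps4 ran from -0.12 to -0.02 with single libraries left out. Rps23-ps1 and Rps23-ps2 each overlap an exon of a gene on the opposite strand, Gm5148 and Rps23rg1. Of the large subunit copies, Rpl36-ps12 stood at 784 per kb, Rpl10a-ps1 at 775 per kb and Rpl28-ps3 at 668 per kb. Their log2 fold changes were 0.13, 0.03 and 0.19. With single libraries left out, Rpl36-ps12 ran from 0.01 to 0.33 and Rpl28-ps3 from 0.08 to 0.35. With limma, none of these 7 was called, and their 95% intervals lay between -0.39 and 0.52.

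Sequence and level went together across pseudogenes. The 24 without a window of their own had a median of 136 per kb, the 80 with some but under 50% had 121, and the 98 with at least 50% had 7.16. The Spearman correlation of level per kb with the share of own windows was -0.55 over 202 pseudogenes, and with identity to the parent 0.61 over 200. These are descriptions across genes that share libraries and parents. Median identity to the parent was 98.1%, with a lowest value of 74.8%, and 14 were 100% identical over the aligned stretch. Rps26-ps1, at 99.07%, had 17.5% of windows of its own, below the median of 48.4%, and a high level.

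**Figure D4:**
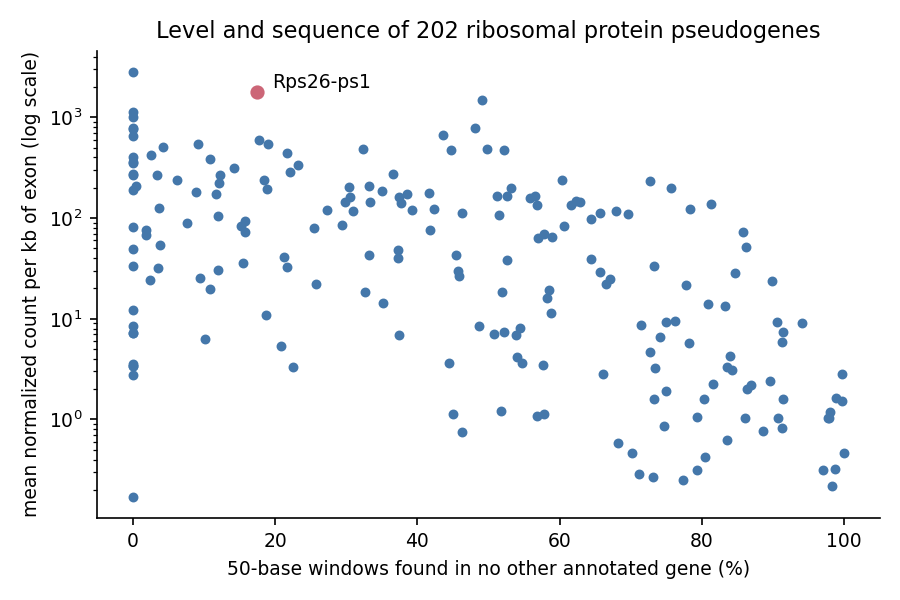
Mean normalized count per kb of exon over all 7 libraries (log scale) against the percentage of 50-base windows found in no other annotated gene, for 202 ribosomal protein pseudogenes; each point is a pseudogene. Rps26-ps1 lies at 17.5%, and pseudogenes with at least 50% of windows of their own have a median of 7.16 per kb.

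By annotation, 188 of the 203 were processed pseudogenes, 7 transcribed processed pseudogenes, 6 protein-coding genes and 1 a long noncoding RNA, and 1 row was not matched to the annotation used. By position, 128 overlapped no other gene, 41 lay in an intron on the opposite strand, as Rps26-ps1 does, and 23 in an intron on the same strand. Median levels were 25.1, 42.7 and 89.6 per kb in these 3 classes. Another 5 overlapped an exon of a gene on the opposite strand, with a median of 425 per kb, and 5 on the same strand, with 43.4. Copies of large subunit genes numbered 128 and of small subunit genes 75. The largest family was that of Rpl31, with 14 copies.

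The ribosomal protein genes, the parents among them, gave no call. With limma, 0 of 79 ribosomal protein genes were called, as with edgeR and DESeq2, beside 0.258%, 0.253% and 0.873% of all tested genes. Before adjustment, 1 of the 79 had a p-value under 0.05 with limma, Rps26, against 9.73% of all tested genes. Log2 fold changes of the 79 ran from -0.22 (Rps26) to 0.14, with a median of 0.02. Of 7 tested ribosomal protein paralogs, 0 were called with limma and 1, Rps4l, had an unadjusted p-value under 0.05 (9.73% of all genes). Its log2 fold change was 0.69 (limma adjusted p = 0.236). DESeq2, which called 0.873% of all genes, called Rps4l (log2 fold change 0.66, DESeq2 adjusted p = 0.0226), and edgeR did not. Rps4l is annotated as a transcribed processed pseudogene, as Rps26-ps1 is, and its symbol puts it outside the rule that chose the 203. Its normalized counts did not overlap, with 289, 252, 220 and 160 for the wild-type libraries in order, beside 354, 382 and 355 for those labelled PROSER1 KO. Of 27 ribosome assembly factors, 0 were called with limma and 1, Bop1, had an unadjusted p-value under 0.05 (9.73% of all genes). Of 12 p53 targets, 0 were called with limma and 1, Eda2r, had an unadjusted p-value under 0.05 (9.73% of all genes). Its log2 fold change was 0.51 (limma adjusted p = 0.457). Among the 12, 4 were higher and 8 lower, with a median of -0.03. The lowest was Pmaip1 (-0.63, limma adjusted p = 0.535). Of 136 tested pseudogenes of other families, 0 were called with limma, beside 0.258% of all tested genes. Before adjustment, 5 of the 136 had a p-value under 0.05, against 9.73% of all genes, and the median log2 fold change of the 136 was -0.01. edgeR called 0 of these pseudogenes (0.253% of all genes) and DESeq2 called 1 (0.873% of all genes). This was Tdg-ps2 (DESeq2 adjusted p = 0.00995, limma adjusted p = 0.185), named after its values were seen. For the assembly factors and p53 targets, edgeR and DESeq2 also called 0.

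Markers checked the labelled cell type. All 13 LSK and progenitor markers were above 0, led by Cd34, with summed normalized counts of 142790 to 156130 in wild-type, against 144140 to 146160 in the PROSER1 KO-labelled libraries. Kit and Ly6a, which encode cKit and Sca1, had at least 25535 and 3961 normalized counts in each library. Plasma cell markers, led by Jchain, summed to more than the LSK and progenitor markers in each library. Their sums ran from 170470 to 428010 in wild-type, against 199570 to 298180 in the others. Sums of the 6 B cell markers, led by Cd79b, ran from 3352 to 6803 and from 3409 to 5261. Sums of the 6 T cell markers, led on average by Cd4, ran from 286 to 358 in wild-type and were 1229, 164 and 288 in PROSER1 KO replicates 1 to 3. The 6 granulocyte and monocyte markers, led by Csf1r and with Ly6g at 0 in wild-type replicates 3 and 4, summed to between 1362 and 4172 in wild-type and to between 1810 and 3192 in the others. The 5 erythroid markers, led by Epor, summed to between 244 and 430 and to between 298 and 487. Of the markers of all 6 lists, limma, edgeR and DESeq2 each called 0, beside 0.258%, 0.253% and 0.873% of all tested genes. At an unadjusted p-value under 0.05, limma had 1 LSK, 2 B cell, 0 plasma cell, 1 T cell, 1 granulocyte and monocyte and 0 erythroid markers. The share of all genes tested with limma was 9.73%. In the same order of lists, edgeR had 1, 3, 0, 4, 1 and 0 at this threshold, and DESeq2 had 2, 1, 0, 1, 1 and 0. The share of all genes at this threshold was not computed for edgeR and DESeq2, so their counts are not read as a result. Summed levels of all 6 lists overlapped between the groups. Of the 41 markers tested, 1 was higher without overlap (5.17% of all tested genes) and 2 lower (4.83%), and these are Mecom (log2 fold change -0.25, limma adjusted p = 0.282), Cd4 (-0.61, limma adjusted p = 0.374) and Csf1r (0.47, limma adjusted p = 0.334). Other markers of the same lists went the other way, among them Slamf1 (0.28) and Procr (0.22), Cd3e, Cd3d and Cd3g (1.27, 1.52 and 1.61), and S100a8 and S100a9 (-0.03 each), all 7 with overlap and a limma adjusted p of at least 0.559. Cd3e, Cd3d and Cd3g were highest in PROSER1 KO replicate 1, at 197, 106 and 697 normalized counts. They held 8.46, 2.54 and 24.5 in PROSER1 KO replicate 2, and 11.5, 21.1 and 38.4 in PROSER1 KO replicate 3. All 6 plasma cell markers had negative log2 fold changes, from -0.49 to -0.17, with a lowest limma adjusted p of 0.639. In bulk RNA, fewer cells of a type and less RNA per cell cannot be told apart.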

How the data were processed

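LSK libraries (4 wild-type and 3 PROSER1 KO) were grouped by their labels. Before deposition, the authors used Trimmomatic, STAR with mm10 (GRCm38), featureCounts on read pairs and DESeq2 size factors, so that the deposited values are a normalized signal per gene. Tool versions and the strand and multiple-match settings are not given in the sources used here. Dividing each library by its smallest value above 0 returned whole read pairs for 100% of values (tolerance 0.01).

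The main test was limma 3.58.1 (R 4.3.3, lmFit and eBayes with trend) on log2(normalized count + 1). It covered 16251 genes averaging 10 or more. Genes were called when the p-value adjusted after Benjamini and Hochberg was under 0.05 and the difference exceeded 1.5-fold. edgeR 4.0.16 and DESeq2 1.42.0 on read pairs were alternatives, beside other pseudocounts, filters, TMM factors, no trend, a replicate block and each library left out. The limma, edgeR and DESeq2 fits were tested on simulated counts, with the same setting of spread between replicates for all genes. The other procedures were not tested in this way. GENCODE M21 (GRCm38) annotation and transcripts were compared with BLAST 2.17.0 and Biopython 1.88. The methods name release M25 and the header of the deposited table vM10, so exon lengths, classes and windows come from another release than the counts. Windows were to be compared with the whole genome. This was not run, and annotated transcripts were used instead, a choice made after seeing the data.

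Named pseudogenes were Rps26-ps1, those called, the 10 highest per kb of exon, the largest rises and falls, and the widest spread in wild-type, with parents, overlapping and neighbouring genes. Members and lists were chosen with earlier results of these data known.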

Additional observations from a re-analysis of the deposited data

Results flagged for a closer look

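In wild-type replicate 3, Rps6 and Rpsa stood apart from the other wild-type libraries. Rps6 had 44224 normalized counts there and 40383 to 40806 in the other 3. Rpsa had 81887 there and 76540 to 76819 in the other 3. Of 45 values examined in the 4 wild-type libraries, 2 were far from the others in this sense, and chance marks about 1 in 20.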

How the results depend on the processing

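Rps26-ps1 kept its direction and its call under all 16 alternatives run, with log2 fold changes from 2.60 to 2.73. The number of all genes called was 42, and became 17 without the mean-variance trend and 165 with DESeq2. With single libraries left out it ran from 23 (without PROSER1 KO replicate 2) to 42. The difference of log2 ratio between Rps26-ps1 and Rps26 was 2.95 with the replicate block (p = 0.25 by exact permutation, the smallest that 3 pairs allow), and ran from 2.81 to 2.95 with single libraries left out, where the smallest p the remaining libraries allow is 0.0667 or 0.1. Whether the replicate numbers pair the libraries is not given in the sources used here. Deviations of same-numbered libraries had correlations of 0.02, 0.06 and -0.11, and those of differently numbered ones ran from -0.13 to 0.14. So few values cannot decide the question. The block gave 35 genes called. Pseudogenes that did not pass the test turned in sign with single settings, and the cause was not tested: Rps23-ps1 was at 0.00494 with edgeR and 0.00591 with DESeq2. With single libraries left out, Rps23-ps1 ran from -0.16 to 0.13, Rpl38-ps2 from -0.0444 to 0.19, Rps16-ps2 from -0.13 to 0.00969, Rpl10a-ps1 from -0.00814 to 0.0829 and Rps23-ps2 from -0.16 to 0.0227. The share of windows of Rps26-ps1 in no other gene was 8.37% with 32 bases and 42% with 100. The comparison of windows with the whole genome was not run.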
